A study of Mus musculus with 4 samples.

Results

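The Slc25 genes encode the mitochondrial carriers, and their transcripts were followed here in skeletal muscle of old mice. Members were all genes whose mouse symbol begins with Slc25a, without pseudogenes. Of 47 such symbols in the counts, 46 were counted as single genes, among 38240 single genes with a symbol. Slc25a51 was counted jointly with another gene and was left out. The 46 members held 719 exonic bins, the pieces of exon between annotated boundaries in which reads were counted. Levels are given as CPM, counts scaled to the library total after trimmed-mean (TMM) correction.

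RNA came from thigh skeletal muscle of wild-type, untreated males of the inbred strain C57BL/6J. The older group was 28 months of age (3 libraries, replicates 1 to 3, whose values are given in that order) and the younger 18 months (1 library), and no label ties the libraries to separate animals. The p-values therefore measured only the spread between these samples, all of it from the 28-month libraries. The extraction text in the labels speaks of skin cells, so the tissue was checked: muscle fibre markers summed to between 48384 and 101969 CPM in the older libraries and to 69926 CPM in the younger one. The 6 keratinocyte markers together reached between 12.8 and 18.2 CPM in the older libraries and 16.3 CPM in the younger one, with Krt5 at 0 in every library.

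Mitochondrial carriers are small proteins of the inner mitochondrial membrane, built from repeated units of paired membrane helices, that exchange or import solutes the membrane would otherwise hold back. They bring ADP and phosphate to the ATP synthase and take ATP out, shuttle reducing equivalents as malate and aspartate, and carry fatty acids bound to carnitine. In skeletal muscle the adenine nucleotide exchanger Slc25a4 and the phosphate carrier Slc25a3 are known to be among the most abundant proteins of that membrane.

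Counts over all bins came to between 67279205 and 76163175 per library at 28 months and to 65780464 at 18 months. Slc25 members took 0.513, 0.465 and 0.455% of them in 28-month replicates 1, 2 and 3 and 0.526% at 18 months. Libraries differed in ways other than age. The TMM factor was 1.28 in 28-month replicate 2, against 0.877, 0.897 and 0.990 in 28-month replicates 1 and 3 and at 18 months. The 18-month library had fewer counts toward the 5′ ends of genes. Among 5615 genes with placed bins, the median share of counts in the first 33.3% of the exonic length was 25.0, 26.3 and 25.3% in the older libraries and 18.3% in the younger one. The 18-month share was below all 28-month shares in 4195 of those genes (74.7%) and in 17 of 22 Slc25 members (77.3%).

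A few carriers made up most of the family. Levels were divided by kilobases of exon, a length that takes in every annotated exon base, retained-intron pieces included. Slc25a4 reached 1027, 614 and 943 CPM per kilobase in the older libraries and 1071 in the younger one. This exchanger of ADP for ATP, the form of heart and skeletal muscle, held between 51.2 and 55.2% of the family's level per kilobase at 28 months and 61.8% at 18 months. The phosphate carrier Slc25a3 came to 182, 142 and 162 CPM per kilobase in the older libraries and 197 in the younger one. The citrate carrier Slc25a1 ranged much more widely, at 315, 36.6 and 190 CPM per kilobase in the older libraries and 52.7 in the younger one. Next came Slc25a11, the oxoglutarate-malate exchanger, with 168, 95.3 and 136 CPM per kilobase in the older libraries and 150 in the younger one. The ranges of Slc25a3, Slc25a1 and Slc25a11 overlapped at these lengths, but the order of Slc25a3 depends on the length used. Its 5550 bases include pieces of 1226 and 1196 bases held only by a retained-intron transcript, with at most 210 counts in any library. Such pieces lower its level per kilobase. Undivided by length, Slc25a3 stood at 1008, 790 and 902 CPM in the older libraries and 1095 CPM in the younger one, above Slc25a1 and Slc25a11 in each. Slc25a12, the aspartate-glutamate exchanger of muscle and brain, had 71.6, 53.2 and 68.9 CPM per kilobase and 71.1 at 18 months, below Slc25a1 in replicates 1 and 3 and above it in the other libraries.

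**Figure D1:**
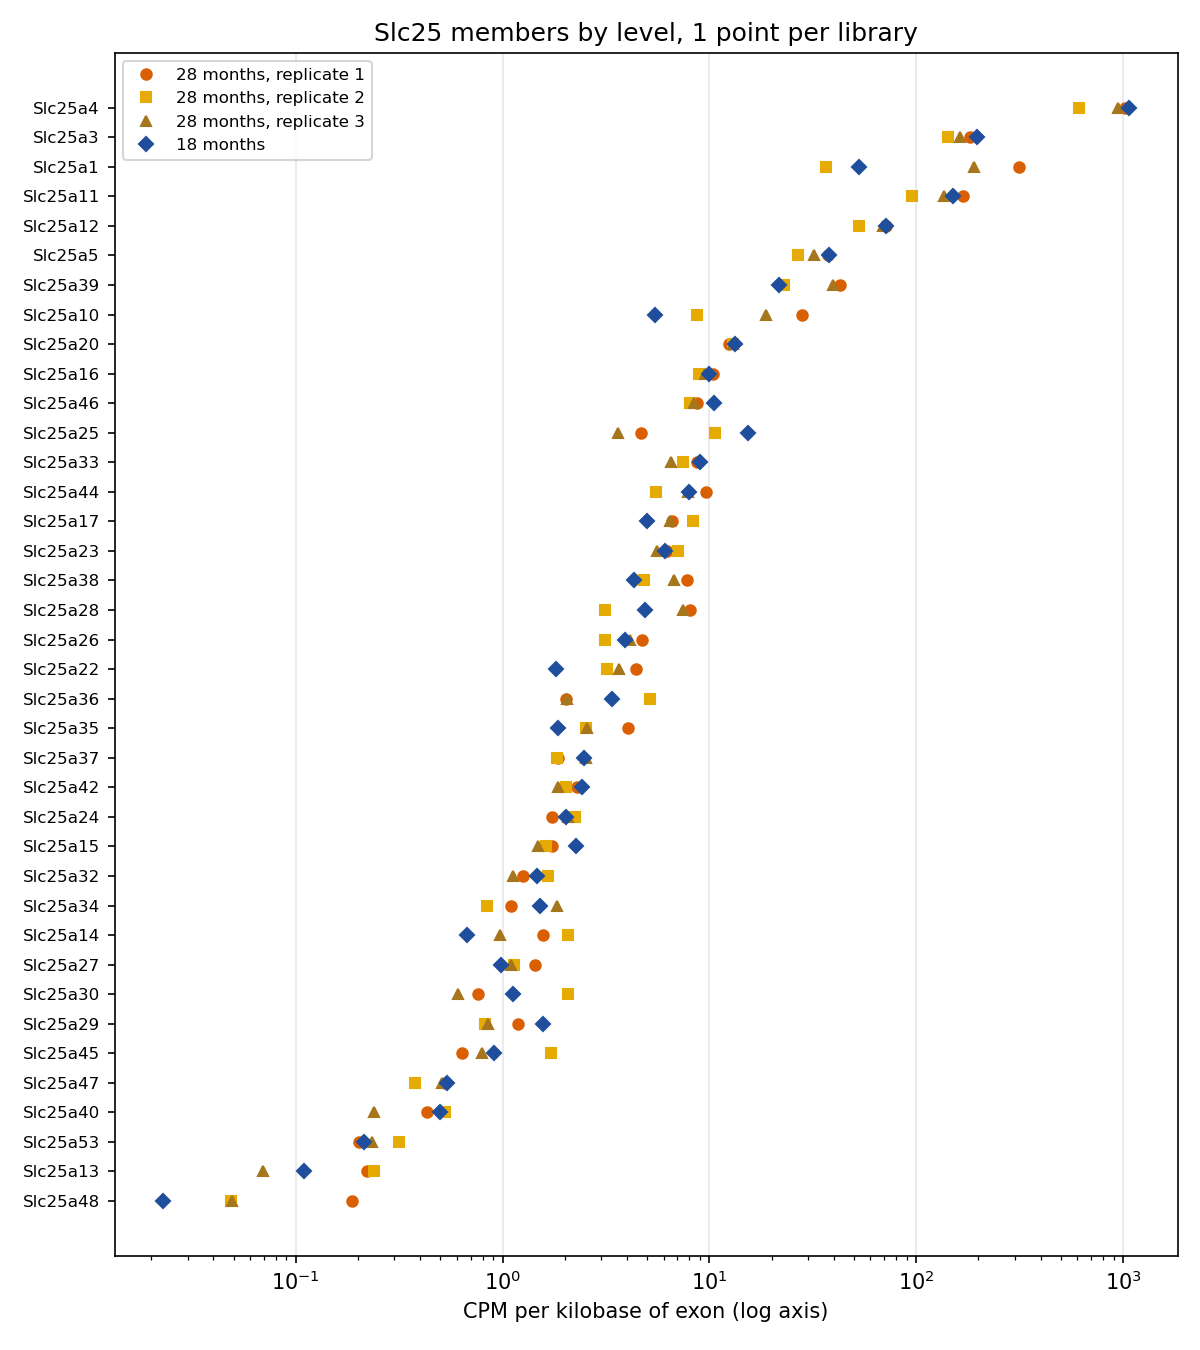
Level of 38 of the 39 tested Slc25 members in CPM per kilobase of exon on a log axis, with 1 point for each of the 3 libraries at 28 months and for the single library at 18 months. Slc25a4 lies above all other members in every library, and the points of Slc25a1 and Slc25a10 are spread the most among the abundant members.

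At the other end, 7 members had a mean below 10 counts and were not tested. They are Slc25a2, Slc25a18, Slc25a21, Slc25a31, Slc25a41, Slc25a43 and Slc25a54, and none exceeded 27 counts in any library. Slc25a31, the adenine nucleotide exchanger of testis, had 0, 2 and 0 counts in the older libraries and 6 in the younger one. Slc25a18, a glutamate carrier, had 4 counts in 28-month replicate 3 and 0 elsewhere. Slc25a54 was at 0 throughout, and a library without a count still allows up to 3, a limit that covers counting error only.

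Between the ages, no member passed the edgeR quasi-likelihood test at a Benjamini-Hochberg adjusted p under 0.05, nor did any of the 15376 genes tested (0%). The smallest adjusted p of edgeR among the 39 members tested was 0.859. At an unadjusted p under 0.05, edgeR marked 1 member, Slc25a22, and 753 of all genes (4.9%). DESeq2 called 0 members and 34 of all genes (0.221%) at an adjusted p under 0.05. At an unadjusted p under 0.05 it marked 4 members, Slc25a1, Slc25a10, Slc25a22 and Slc25a25. The share of all genes that DESeq2 marks at that level was not taken, so it is not known whether 4 members are more than that share. Estimates were higher at 28 months in 18 members and lower in 21, with a median log2 difference (28 minus 18 months) of -0.04, against 0.06 over all genes tested. In 26 of 39 the estimate lay within 0.5 of 0 on the log2 scale. The 18-month value fell below all 28-month values in 10 members (25.4% of all genes tested) and above all of them in 11 (26.4% of all genes tested), so it lay outside their range in 21 of 39, beside 51.8% of all genes tested. Markers of some other cells differed between the single 18-month library and the older ones, though none of these markers passed the edgeR test: in 6 of 6 macrophage markers the 18-month value was below all older ones (sums of 76.9 to 127 CPM and 45.8 CPM), and in 5 of 5 Schwann cell markers it was above them (sums of 92.8 to 176 CPM and 311 CPM). Their part in the members' differences was not tested. Muscle is bulk tissue, so fewer cells of a type and less RNA per cell cannot be told apart.

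One library set much of the spread. Replicate 2 was the lowest 28-month library in 22 of 39 members and the highest in 13. The coefficient of variation at 28 months had a median of 23.3% over the members, from 2.74% in Slc25a20 to 83.8% in Slc25a48, a carrier outside the naming rule that was singled out after its values were seen. Without replicate 2, 8 of 39 members (20.5%) passed the edgeR test, beside 1799 of 15133 genes (11.9%). That fit took its spread from the remaining pair of 28-month libraries. Of these 8, 6 rose at 28 months (Slc25a1, Slc25a10, Slc25a22, Slc25a28, Slc25a38 and Slc25a39), where 7.52% of all genes did, and Slc25a25 and Slc25a36 fell, where 4.37% of all genes did. No member passed without replicate 1 (0% of all genes) or without replicate 3 (0.00648% of all genes).

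**Figure D2:**
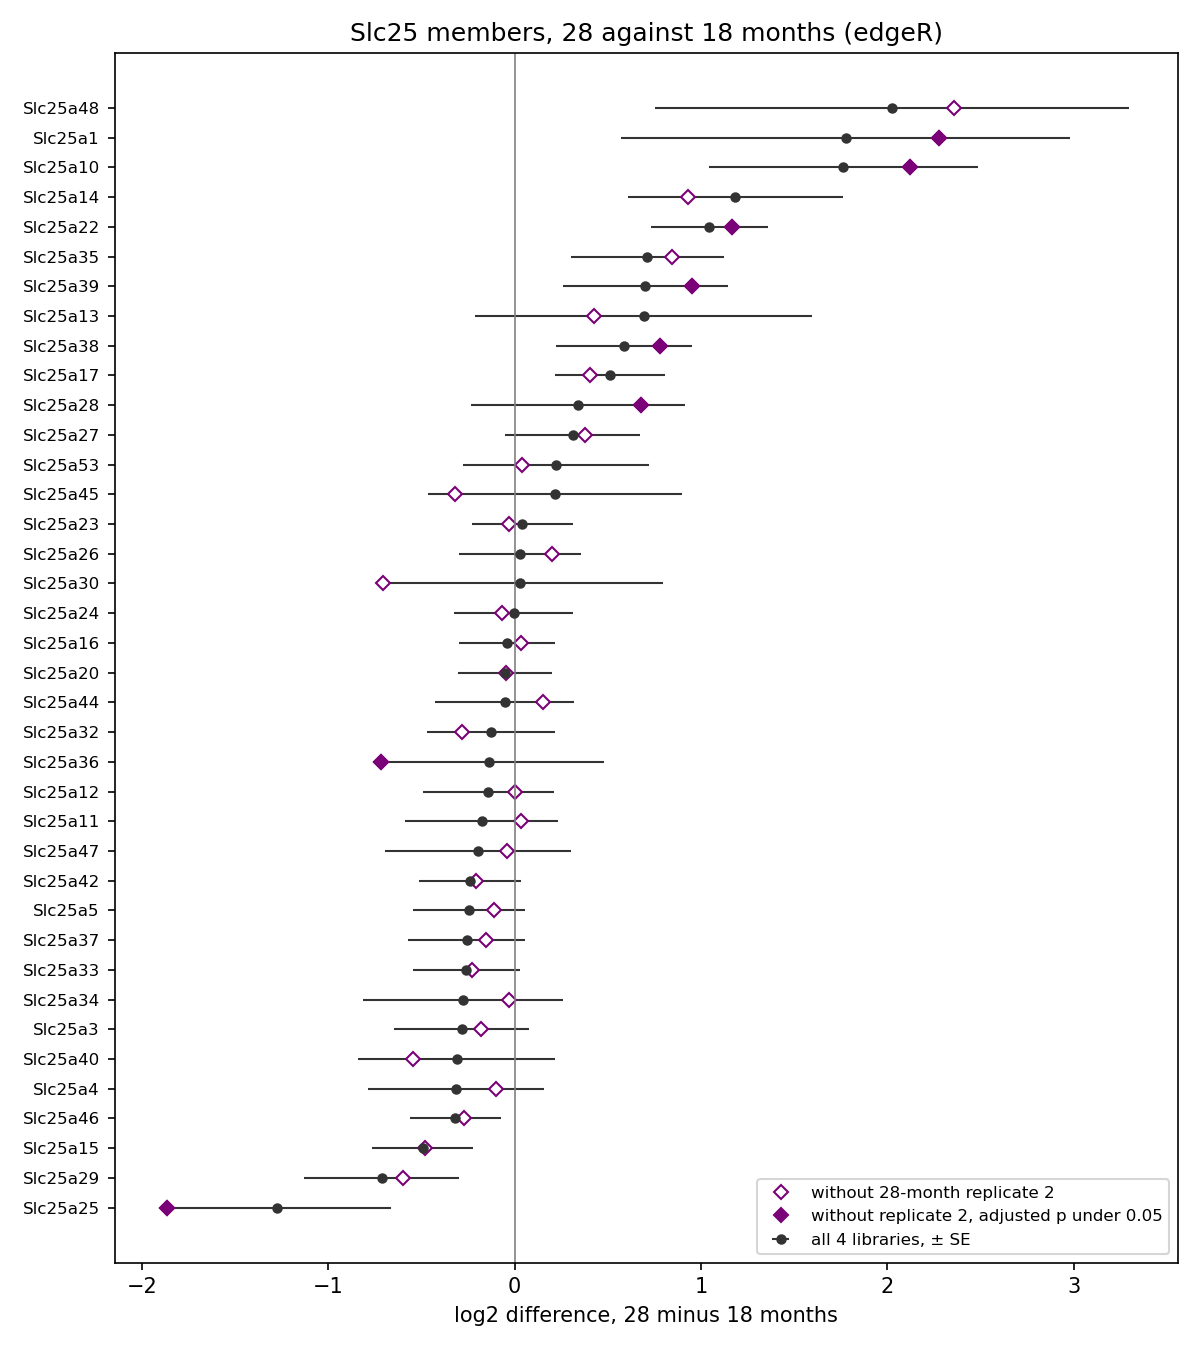
Difference between 28 and 18 months in log2 for 38 of the 39 tested Slc25 members with their standard errors, from all 4 libraries and without 28-month replicate 2. No member passed the edgeR test with all libraries, and 8 passed without replicate 2.

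The adenine nucleotide, phosphate and ATP-Mg carriers supply the ATP synthase and adjust the adenine nucleotide pool of the matrix. Of the 8, 6 were tested and 0 passed. Slc25a4 stood at 2417, 1444 and 2219 CPM in the older libraries and 2519 CPM in the younger one, a log2 difference of -0.31 ± 0.47 (SE). Slc25a5, the form of most other tissues, stood at 61.8, 44.0 and 52.5 CPM in the older libraries and 62.5 CPM in the younger one. In each of the 2 genes the 18-month library was the highest, but only just above replicate 1. The ratio of Slc25a4 to Slc25a5 per kilobase was 27.4, 22.9 and 29.6 in the older libraries and 28.2 in the younger one, so the 18-month ratio lay within the 28-month range. Slc25a5 matched 8 pseudogenes over at least 100 bases at 90% identity or more, and the counting may have split reads between them.

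Slc25a25, a calcium-regulated carrier that exchanges ATP-Mg for phosphate, stood at 36.6, 83.9 and 28.4 CPM in the older libraries and 120 CPM in the younger one. The 18-month library was above all 28-month libraries, and replicate 2 was the nearest to it. The log2 difference was -1.27 ± 0.61 (SE; edgeR adjusted p = 0.859), and without replicate 2 it was -1.87 with an adjusted p of 0.0151. Over the whole gene, the relatives Slc25a23 and Slc25a24 showed no such gap. Slc25a23 had 32.9, 37.4 and 29.6 CPM in the older libraries and 32.4 CPM in the younger one, and Slc25a24 had 5.98, 7.70 and 7.09 CPM against 6.94 CPM. Over the last 33.3% of the exonic length, however, both were highest at 18 months, Slc25a23 at 7.13, 9.82 and 5.57 CPM against 13.6 CPM and Slc25a24 at 2.70, 4.01 and 2.87 CPM against 5.22 CPM. The ratio of Slc25a23 to Slc25a25 per kilobase was 1.33, 0.662 and 1.55 in the older libraries and 0.400 in the younger one. Exons of Slc25a23 and Slc25a25 overlap a gene on the opposite strand, as do those of 10 other members, and no source used here says whether the counting used strand.

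The aspartate, glutamate, citrate, dicarboxylate and oxoglutarate carriers link the citric acid cycle with the cytosol. Of the 8, 6 were tested and 0 passed, with a median log2 difference of 0.87. Slc25a1, which exports citrate for the synthesis of fatty acids and sterols, stood at 682, 79.3 and 412 CPM in the older libraries and 114.1 CPM in the younger one. Replicates 1 and 3 were high, while replicate 2 lay below the 18-month library, so the groups overlapped. The log2 difference was 1.78 ± 1.20 (SE; edgeR adjusted p = 0.859), and without replicate 2 it was 2.28 with an adjusted p of 0.0180. Muscle creatine kinase (Ckm), which buffers ATP in the fibre, stood at 23976, 7799 and 24114 CPM in the older libraries and 8974 CPM in the younger one, also low in replicate 2 and at 18 months. Summed adipocyte markers were 2732, 3907 and 2270 CPM in the older libraries and 2491 CPM in the younger one, highest in the library with the least Slc25a1. Most of that sum was Fabp4, at 1946, 2725 and 1585 CPM against 1937 CPM. Cidea ran otherwise, at 35.6, 8.37 and 21.9 CPM in the older libraries and 7.60 CPM in the younger one, low in replicate 2 and at 18 months. In 4 of the 7 adipocyte markers the 18-month value was below all others, and in 0 it was above them. Among the 9 muscle fibre markers it was below all others in 1 and above them in 2, Ttn and Mb, so Ckm does not stand for the list. The part of adipocyte or fibre content in the Slc25a1 values was not tested.

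Slc25a10, which exchanges dicarboxylates such as malate for phosphate, stood at 97.2, 29.9 and 65.2 CPM in the older libraries and 18.9 CPM in the younger one. Over the whole gene every 28-month library exceeded the 18-month library, again with replicate 2 the closest. The log2 difference was 1.76 ± 0.72 (SE; edgeR adjusted p = 0.859), and without replicate 2 it was 2.12 with an adjusted p of 0.0164. Slc25a22, a glutamate carrier, stood at 26.4, 19.2 and 21.9 CPM in the older libraries and 10.9 CPM in the younger one. The groups did not overlap, and the 28-month libraries were closer together than in Slc25a1 or Slc25a10. Its log2 difference was 1.04 ± 0.31 (SE), with an unadjusted p of 0.0198 in edgeR and an adjusted p of 0.859, and without replicate 2 the difference was 1.17 with an adjusted p of 0.0227.

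The differences of Slc25a1 and Slc25a10 were smaller at the 3′ ends of the genes, while Slc25a22, whose bins were not placed, has no such value. Over the last 33.3% of its exonic length Slc25a1 came to 244, 25.8 and 146 CPM in the older libraries and 63.7 CPM in the younger one, a ratio of means of 2.17 where the whole gene gave 3.43. For Slc25a10 the 3′ end gave 33.6, 9.03 and 23.4 CPM against 10.6 CPM, so replicate 2 lay below the 18-month library there, and the ratio was 2.07 at the 3′ end and 3.40 over the whole gene. Of 22 members with such a value, 20 had a lower ratio of 28 to 18 months at the 3′ end than over the whole gene, and the median ratio was 0.736 against 0.940. No such ratio was taken over all genes, so it is not known whether 20 of 22 is more than their share. By another measure, the 18-month 5′ share was below all 28-month shares in 74.7% of all placed genes and in 77.3% of Slc25 members. The part of this 5′ loss in the gene differences was not tested beyond these ratios.

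The malate-aspartate shuttle carriers were steadier over the whole gene. Slc25a12 stood at 526, 390 and 506 CPM in the older libraries and 522 CPM in the younger one, a log2 difference of -0.14 ± 0.35 (SE). Slc25a11 stood at 356, 202 and 289 CPM in the older libraries and 319 CPM in the younger one, a log2 difference of -0.18 ± 0.41 (SE). In both genes the 18-month value over the whole gene lay within the 28-month range. At the 3′ end alone, however, both were highest at 18 months. Slc25a11 stood there at 118, 72.1 and 94.1 CPM in the older libraries and 154 CPM in the younger one, a ratio of 0.615 where the whole gene gave 0.885. Slc25a12 stood at 20.8, 17.3 and 19.6 CPM in the older libraries and 46.6 CPM in the younger one. The ratio at the 3′ end of Slc25a12 was 0.413, while the whole gene gave 0.907. For this gene the 3′ end was bin 1 only, a last piece of 3627 bases. It held 3.96, 4.44 and 3.88% of the gene's counts in the older libraries and 8.93% in the younger one. The ratio thus rests on a small part of the gene's counts, though not of its length of 7342 exonic bases. Slc25a13, the aspartate-glutamate exchanger of liver, had 56, 88 and 16 counts in the older libraries and 27 in the younger one, and per kilobase Slc25a12 exceeded it by factors of 324, 224 and 987 in the older libraries and 652 in the younger one.

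The carnitine and amino acid carriers feed fatty acid oxidation and nitrogen metabolism in the matrix. Of the 9, 8 were tested and 0 passed. Slc25a20, which carries acylcarnitines in and carnitine out, was the most even member, at 60.1, 63.3 and 62.7 CPM in the older libraries and 64.2 CPM in the younger one, a log2 difference of -0.05 ± 0.25 (SE). Slc25a38, which carries glycine for haem synthesis, stood at 21.5, 13.3 and 18.5 CPM in the older libraries and 11.8 CPM in the younger one. Over the whole gene the 18-month value was the lowest, just under replicate 2. At the 3′ end Slc25a38 stood at 7.08, 4.82 and 7.01 CPM against 5.13 CPM, with replicate 2 below the 18-month library. Its log2 difference was 0.59 ± 0.36 (SE; edgeR adjusted p = 0.859) and, without replicate 2, 0.78 with an adjusted p of 0.0451.

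Slc25a29, a carrier of basic amino acids, stood at 3.08, 2.14 and 2.22 CPM in the older libraries and 4.07 CPM in the younger one. Slc25a15, which exchanges ornithine and citrulline for the urea cycle, stood at 9.76, 9.13 and 8.33 CPM in the older libraries and 12.8 CPM in the younger one. In both, the 18-month library was above all others, with log2 differences of -0.71 ± 0.42 and -0.49 ± 0.27 (SE) and an edgeR adjusted p of 0.859 for each. Slc25a44, which imports branched-chain amino acids, stood at 34.5, 19.8 and 28.1 CPM in the older libraries and 28.5 CPM in the younger one, within the 28-month range.

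The 12 cofactor, nucleotide, glutathione and metal carriers were all tested and 0 passed. Slc25a39, which imports glutathione, stood at 118, 63.5 and 109 CPM in the older libraries and 59.5 CPM in the younger one. All 28-month libraries were higher over the whole gene, replicate 2 by little, but at the 3′ end, with 48.6, 24.4 and 45.0 CPM against 28.5 CPM, replicate 2 lay below the 18-month library. The log2 difference was 0.70 ± 0.44 (SE; edgeR adjusted p = 0.859) and, without replicate 2, 0.95 with an adjusted p of 0.0194. Slc25a28, an iron importer called mitoferrin, stood at 30.2, 11.8 and 27.9 CPM in the older libraries and 18.4 CPM in the younger one. Replicate 2 lay below the 18-month library there, and the call that appeared without it (log2 difference 0.68, edgeR adjusted p = 0.0432) rests on replicates 1 and 3. Summed red blood cell markers, 378, 145 and 3808 CPM in the older libraries and 183 CPM in the younger one, were also lowest in replicate 2, and their part in the values of Slc25a28 and Slc25a38 was not tested.

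Slc25a36, which carries pyrimidine nucleotides, showed the reverse order among replicates, at 19.3, 49.4 and 19.7 CPM in the older libraries and 32.5 CPM in the younger one. Replicate 2 was the highest and the others were below the 18-month library. The log2 difference was -0.14 ± 0.62 (SE) with all libraries and -0.71 without replicate 2 (edgeR adjusted p = 0.0357). Slc25a33, the other pyrimidine nucleotide carrier, had a log2 difference of -0.26 ± 0.29 (SE). Slc25a17, which serves peroxisomes, stood at 18.7, 23.7 and 18.3 CPM in the older libraries and 14.2 CPM in the younger one, below all 28-month libraries, with a log2 difference of 0.51 ± 0.29 (SE). Slc25a16 and Slc25a42, which are linked to coenzyme A, had log2 differences of -0.04 ± 0.26 and -0.24 ± 0.28 (SE).

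The 3 relatives of the uncoupling proteins were low and none passed. Slc25a14 stood at 3.71, 4.87 and 2.30 CPM in the older libraries and 1.60 CPM in the younger one, with a log2 difference of 1.18 ± 0.58 (SE; edgeR adjusted p = 0.859). Slc25a27 stood at 5.65, 4.49 and 4.34 CPM against 3.89 CPM, and Slc25a30 at 3.46, 9.51 and 2.78 CPM against 5.16 CPM. The 18-month value was below all others in Slc25a14 and Slc25a27, while in Slc25a30 replicate 2 stood apart. Of the 6 members with less settled function, 4 were tested and 0 passed. Slc25a35 stood at 14.9, 9.31 and 9.36 CPM in the older libraries and 6.82 CPM in the younger one, with a log2 difference of 0.71 ± 0.41 (SE). Slc25a46, which sits in the outer membrane and takes part in mitochondrial fission and fusion, stood at 47.4, 43.9 and 45.4 CPM in the older libraries and 56.8 CPM in the younger one, with a log2 difference of -0.32 ± 0.24 (SE).

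Genes that work with the carriers were examined as lists, and 0 genes passed the edgeR test in any of the 8. At an unadjusted p under 0.05 in edgeR, 3 of the lists held 1 gene each, beside 4.9% of all genes. Without replicate 2, the test called 3 of the uncoupling proteins and outer membrane relatives, 2 ATP synthase subunits, 1 carrier import gene and 1 creatine kinase, Ckm (adjusted p = 0.0151). That fit called 11.9% of all genes. Among the 4 uncoupling proteins and outer membrane relatives tested, 3 estimates were higher at 28 months and 1 lower. Ucp2 had 20.0, 25.1 and 47.3 CPM in the older libraries and 24.2 CPM in the younger one. Mtch1 had 175, 117 and 156 CPM against 87.1 CPM, and Mtch2 had 367, 246 and 319 CPM against 213 CPM. The lower one was Ucp3, the uncoupling protein of skeletal muscle, at 22.5, 67.9 and 42.9 CPM in the older libraries and 122.6 CPM in the younger one, with a log2 difference of -1.46 ± 0.57 (SE; edgeR adjusted p = 0.859, and 0.0295 without replicate 2). Among the 8 pores tested, 3 estimates were higher and 5 lower, and Vdac3, a channel of the outer membrane, stood at 105, 72.2 and 89.6 CPM against 147 CPM. The 10 ATP synthase subunits tested, partners of Slc25a3 and Slc25a4, split into 4 higher and 6 lower, with a median log2 difference of -0.03. For carrier import the 5 genes tested split into 2 higher and 3 lower, for the malate-aspartate shuttle enzymes the 4 split evenly, and the 2 carnitine enzymes were both lower.

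Exons were compared next, by the share of each bin in its gene. Bin positions come from GENCODE M21 on GRCm38 and were used for the 29 members whose number of bins equals that of this annotation, which does not prove that every placement is right. Of 37 members with enough bins, 2 (5.41%) passed the exon usage test of edgeR at an adjusted p under 0.05, Slc25a12 and Slc25a11, beside 389 of 11000 genes (3.54%). Of 419 member bins, 2 passed (0.477%), beside 525 of 143485 (0.366%), and both were lower at 28 months, as were 0.158% of all bins. Leaving out replicates 1, 2 and 3 in turn, edgeR called 2.13, 30.5 and 1.55% of all genes and 0.224, 7.23 and 0.169% of all bins, and limma voom called 16.0% of genes and 2.39% of bins. Each of the 2 called Slc25 bins averages under 50 counts and is not tested where that many are required. Each is annotated only in a retained-intron transcript, and the sequences are shown because the calls rest on these intron bases. The Slc25a12 sequence lies at chr2:71282611-71282789 and the Slc25a11 sequence at chr11:70645991-70646075, both on the minus strand of GRCm38, taken from GENCODE M21 transcripts and written 5′ to 3′, with the dinucleotides at intron ends in capitals.
Slc25a12 bin 9: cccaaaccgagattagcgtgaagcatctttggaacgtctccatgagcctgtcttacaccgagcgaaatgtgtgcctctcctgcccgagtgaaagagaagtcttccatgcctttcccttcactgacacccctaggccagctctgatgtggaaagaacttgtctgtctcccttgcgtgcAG
Slc25a11 bin 13: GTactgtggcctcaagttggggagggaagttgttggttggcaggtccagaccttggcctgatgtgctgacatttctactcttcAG

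Bin 9 of Slc25a12 is the 179 bases of intron just before the exon at bin 8. It had 0, 4 and 0 counts in the older libraries and 67 counts in the younger one. That is 0.00350 ± 0.00607% (SD, n = 3) of the gene's counts in the older libraries and 0.197% in the younger one (exact 95% interval 0.153 to 0.250%). The 18-month library alone held more than a few counts there. Relative use was lower at 28 months by a log2 difference of -3.90 (edgeR adjusted p = 4.14e-08), and the call held without each 28-month library in turn, with adjusted p-values from 1.78e-16 to 0.000137.

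Bin 13 of Slc25a11 is a whole intron of 85 bases, from its GT to its AG. It had 2, 3 and 24 counts in the older libraries and 144 counts in the younger one, or 0.0538 ± 0.0727% (SD, n = 3) of the gene's counts against 0.694% (exact 95% interval 0.586 to 0.816%). Replicate 3 was the highest of the 28-month libraries and still below the 18-month library. The log2 difference in relative use was -2.61 (edgeR adjusted p = 0.00181). Without replicate 1 the adjusted p was 0.173 and the call was lost, and without replicates 2 and 3 it was 0.000886 and 0.00150. The median share of counts in bins that no protein-coding transcript holds was higher at 18 months than in replicates 1 and 3, but not than in replicate 2. Over 18 members it was 0.407, 0.994 and 0.396% in the older libraries and 0.702% in the younger one. Over 4184 genes it was 0.118, 0.403 and 0.131% against 0.394%. In 6 of the 18 members (33.3%) the 18-month share was above all 28-month shares, as in 1490 of 4184 genes (35.6%). It was below all of them in 1 member and in 467 genes. The part of such reads in the 2 calls was not tested.

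**Figure D3:**
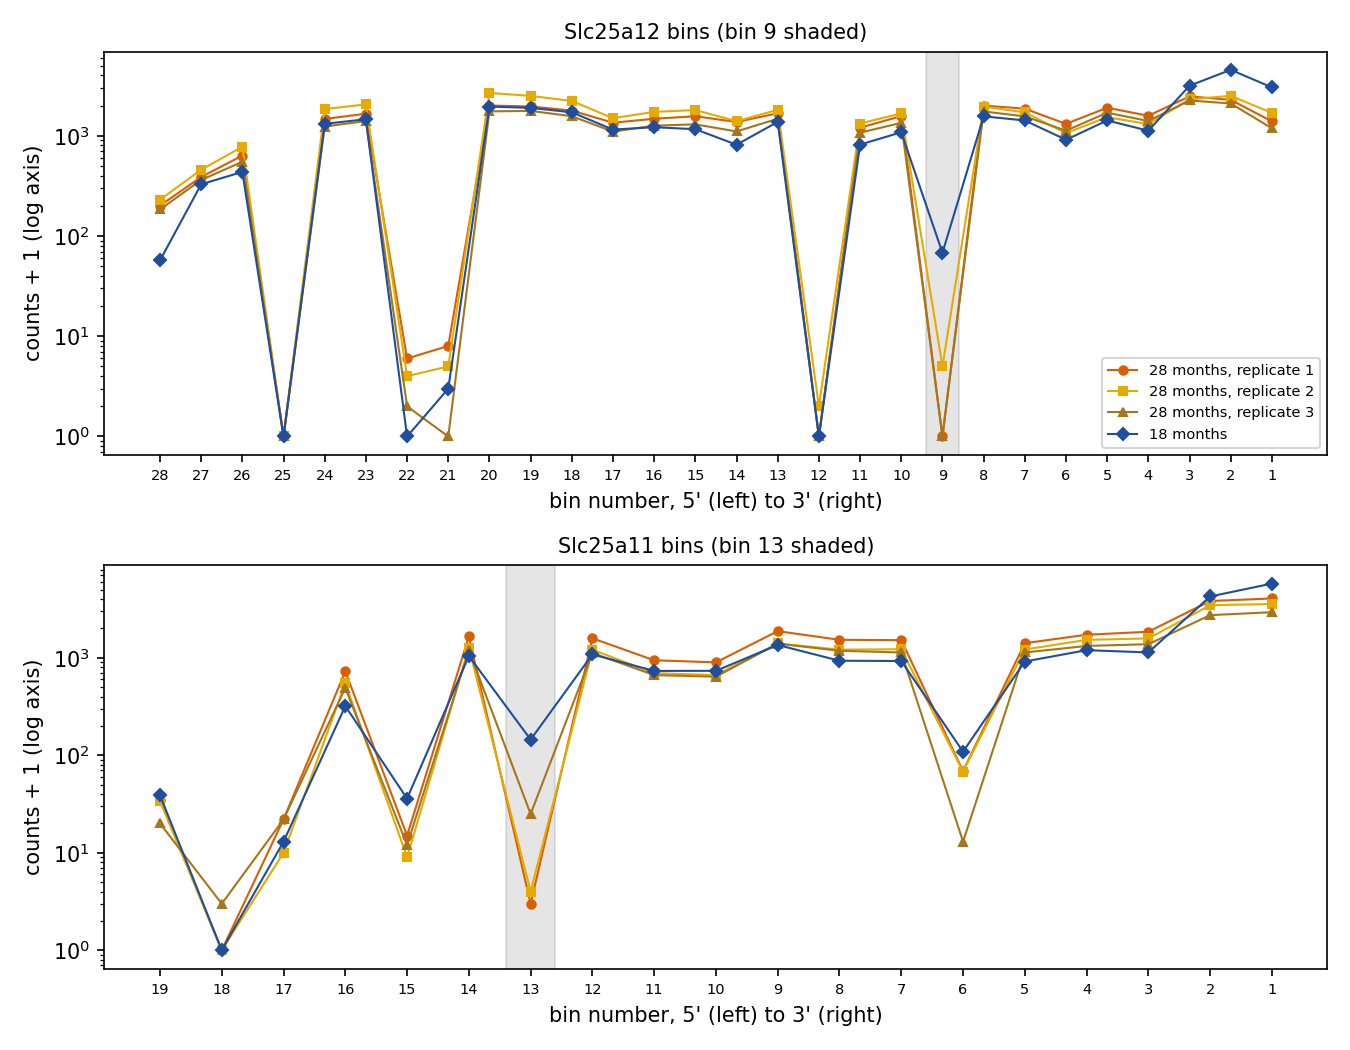
Counts plus 1 on a log axis for every bin of Slc25a12 (top) and Slc25a11 (bottom), in order from 5′ to 3′, with 1 line per library and the called bin shaded. At the shaded bins the 18-month library, with 67 and 144 counts, lies above the 28-month libraries.

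Some bins of Slc25a22 were seen at 28 months only, without passing. Bin 39 had 27, 33 and 24 counts in the older libraries and 0 in the younger one, bin 40 had 26, 31 and 24 counts and 0, and bin 47 had 16, 16 and 15 counts and 0. A count of 0 allows up to 3 counts, or 0.423% of that gene's 18-month counts, while bin 39 alone held 1.53, 1.76 and 1.82% at 28 months. Adjusted p-values were 0.106, 0.120 and 0.431 in edgeR. Larger bins of the gene had the other order, bin 6 with 21.7, 23.2 and 22.7% of its counts in the older libraries and 43.5% in the younger one, and bin 5 with 5.78, 4.22 and 7.34% and 12.5%. As a gene Slc25a22 had an edgeR adjusted p of 0.165, but 0.00592 without replicate 2, 0.0110 with voom and 9.11e-10 in the gene F-test, which called 30.7% of all genes. Slc25a22 held 11 of the 25 member bins that were seen in every older library and not in the younger one. Those 25 were 4.01% of the 623 member bins with counts, beside 3.93% of all bins with counts. The 6 member bins seen at 18 months only, of at most 5 counts, were 0.963%, beside 1.82% of all bins with counts. The bins of Slc25a22 were not placed, so where they lie along the gene is not given here.

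Across the family, 316 of 419 bins (75.4%) had a higher estimated use at 28 months, beside 68.9% of all bins tested. Of the 38 member bins at an unadjusted p under 0.05 in edgeR (9.07%, beside 5.24% of all bins), 30 were higher and 8 lower at 28 months. Bins nearest the 5′ end were among them. Bin 28 of Slc25a12, the most 5′ of that gene, had 200, 229 and 183 counts in the older libraries and 56 in the younger one, and bin 23 of Slc25a3, its exon 2, had 764, 1048 and 657 counts against 145. Both were lower at 18 months than in every 28-month library, as the 5′ ends of most placed genes were, and had edgeR adjusted p-values of 0.186 and 0.287. The Slc25a3 bin fell on the other side of the threshold without replicate 2 (adjusted p = 4.73e-08), with voom (0.00580) and with bins of at least 50 counts on average (0.00239).

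Slc25a3 is known for a pair of mutually exclusive exons that give its protein a tissue-specific stretch: exon 3A belongs to heart and skeletal muscle and exon 3B to most other tissues. The gene lies at chr10:91116574-91124059 on the minus strand of GRCm38. Exon 3A spans 125 bases (chr10:91122207-91122331) and exon 3B 122 bases (chr10:91121922-91122043), with 163 bases between them. They are printed 5′ to 3′ from GENCODE M21 transcripts because the comparison that follows turns on them, with the bases that differ in capitals. The aligned part of 122 bases was identical at 77 (63.1%), and exon 3A has 3 bases more, so reads of the exons can be told apart.
Slc25a3 exon 3A: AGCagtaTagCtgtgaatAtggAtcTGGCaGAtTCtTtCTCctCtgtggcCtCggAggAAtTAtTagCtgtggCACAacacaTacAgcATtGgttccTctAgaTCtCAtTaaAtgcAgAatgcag
Slc25a3 exon 3B: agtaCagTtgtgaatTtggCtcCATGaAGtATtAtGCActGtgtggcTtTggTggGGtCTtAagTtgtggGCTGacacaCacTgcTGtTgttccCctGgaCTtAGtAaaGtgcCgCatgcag

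**Figure D4:**
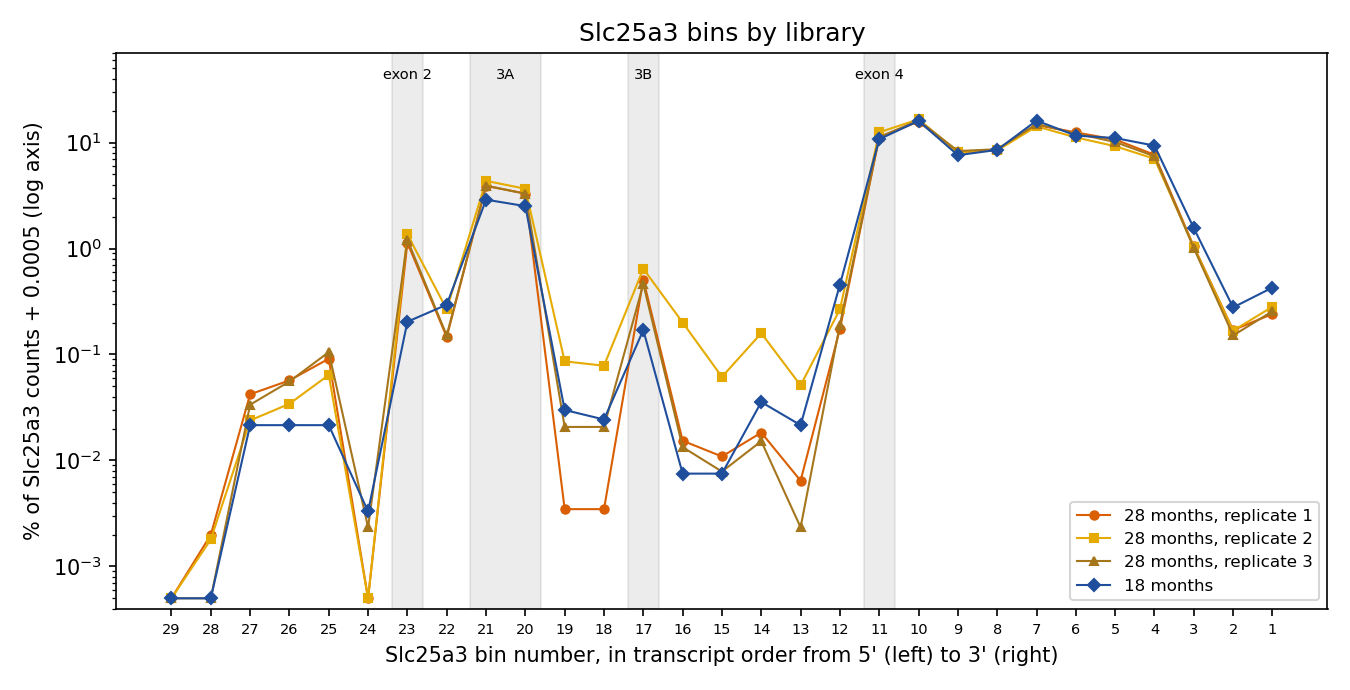
Share of each Slc25a3 bin in the gene's counts, in percent plus 0.0005 on a log axis, in order from 5′ to 3′, with 1 line per library and exons 2, 3A, 3B and 4 shaded. The 28-month libraries lie close together in most bins. The 18-month library is lower at each shaded exon, exon 3A and exon 4 as well as exon 2 (145 counts) and exon 3B (121 counts).

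The muscle exon dominated in every library. Exon 3A had 4845, 6175 and 3923 counts in the older libraries and 3852 in the younger one, and exon 3B had 342, 496 and 251 counts in the older libraries and 121 in the younger one. Exon 3A thus made up 93.3 ± 0.715% (SD, n = 3) of the counts of both exons in the older libraries and 97.0% in the younger one (exact 95% interval 96.4 to 97.5%). The share of exon 3B was 6.59, 7.44 and 6.01% in the older libraries and 3.05% in the younger one. Each 28-month share was above the 18-month share, and the exact 95% intervals, 5.31% at the lowest for 28 months and 3.63% at the highest for 18 months, did not meet.

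The mean share of exon 3B at 28 months was 2.19 times that at 18 months, a difference in exon 3A of -3.64 percentage points. An exact two-sided permutation test of 3 libraries against 1 gave p = 0.25, the smallest this design allows. In the edgeR exon usage fit exon 3B had a log2 difference of 1.14 with an unadjusted p of 0.0344 and an adjusted p of 0.875. The exon 3A bins, 20 and 21, had log2 differences of 0.30 and 0.33 with unadjusted p-values of 0.565 and 0.531. The exon 3B share was thus not called by the test over all bins, and the interval gap covers counting error only. Exon 3A was counted in a pair of bins, in both of which a read may count. With the larger of these bins alone, the share of exon 3B was 11.5, 12.9 and 10.5% in the older libraries and 5.55% in the younger one, a difference in exon 3A of -6.11 percentage points.

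Counts fall toward the 5′ end at 18 months, and exons 2 and 3 are 5′ exons, so each was set against exon 4. Per 100 counts of exon 4, exon 2 had 10.1, 10.9 and 10.7 counts in the older libraries and 1.89 in the younger one. Exon 3A had 64.0, 64.1 and 64.0 against 50.2, and exon 3B had 4.52, 5.15 and 4.09 against 1.58. Each of these exons was lower at 18 months against exon 4, exon 3A by the least. The intron pieces on both sides of exon 3B, bins 16 and 18, had 10, 154 and 7 counts and 2, 60 and 11 counts in the older libraries and 5 and 17 counts in the younger one. The part of the 5′ loss and of intron reads in the exon 3B share was not tested further. By the same measure, 1 pseudogene matched Slc25a3.

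**Figure D5:**
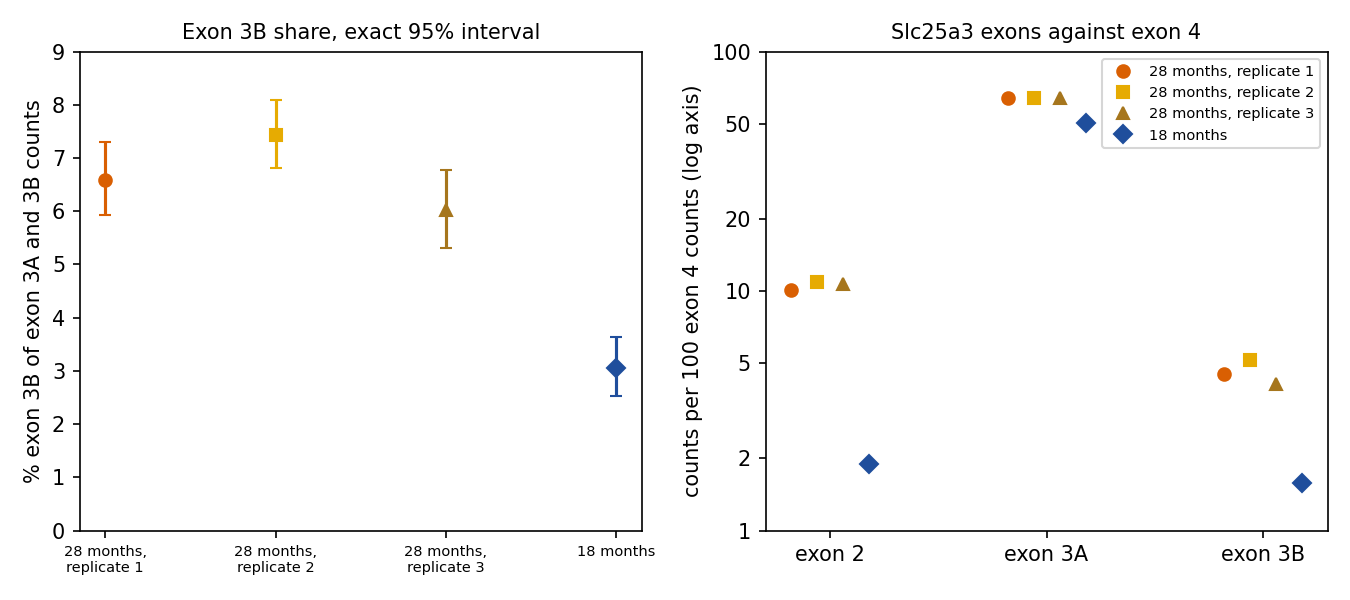
Left, the share of exon 3B in the counts of exons 3A and 3B of Slc25a3 in percent for each library, with exact 95% binomial intervals. Right, counts of exons 2, 3A and 3B per 100 exon 4 counts on a log axis, where the 18-month library lies below the 28-month libraries at each exon.

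Counts in retained-intron bins varied among libraries of the same age in the most abundant carrier too. Bin 2 of Slc25a4, a piece of 428 bases held only by a retained-intron transcript, had 22, 1073 and 998 counts in the older libraries and 1753 in the younger one. That was 0.0136, 0.762 and 0.745% of the gene's counts at 28 months and 1.07% at 18 months. Replicate 1 stood apart, far below the other 3 libraries. In Slc25a1, bin 10, a piece of 4 bases held only by a retained-intron transcript, had 215, 44 and 1 counts in the older libraries and 0 in the younger one, so it too set replicates of the same age apart. Both bins were chosen after their values were seen.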

How the data were processed

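The authors deposited 1 table per library with raw counts for exonic bins and no normalization. TopHat2 2.0.4, bcl2fastq 1.8.3 and the build GRCm38 are named in the submitters' processing notes. Which counter, annotation release and strand setting were used is not given in the sources used here. Each table ends with 5 special entries that name no gene. They held 3.43, 4.56 and 3.36% of the total in the older libraries and 5.20% in the younger one and entered no sum.

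Bins were summed per gene. A fragment that spans several bins may count in each. Genes averaging 10 counts or more were tested with edgeR 4.0.16 (quasi-likelihood, TMM), with 2 residual degrees of freedom from the 28-month libraries and 3.17 prior ones, and the 18-month library, alone in its group, was taken to vary like them. Exon usage was tested with diffSpliceDGE on bins with a mean of at least 10, with Simes p-values per gene. Benjamini-Hochberg adjustment ran over all units or bins, at a threshold of 0.05. Exact binomial (Clopper-Pearson) intervals and limits from a count of 0 cover counting error only. End parts of genes were compared in placed genes of at least 3 bins and a mean of at least 100 counts. The scripts were tested on simulated data.

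Named members were Slc25a3, the 10 with the highest level per kilobase, the 6 of smallest p per direction and up to 3 more per role. Not all are printed, and 1 member is counted but not reported here by name. Named bins were the 8 with the smallest p, those called and exons 3A and 3B. The members, lists and rules were chosen with earlier results of these data known. Alternatives were DESeq2 1.42.0 (size factors and Wald test), another library size, other count filters, limma 3.58.1 (voom, diffSplice), the gene F-test, other counts for exon 3 and each 28-month library left out. Positions and transcripts came from GENCODE M21, symbols from the annotation, and pseudogenes from BLAST 2.17.0 matches of at least 100 bases and 90% identity. Other programs were R 4.3.3, Python 3.11.15, pandas 2.3.3 and matplotlib 3.10.9.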

Additional observations from a re-analysis of the deposited data

How the results depend on the processing

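No paired analysis was possible because there was 1 library at 18 months and it carries no replicate number that another shares. With each 28-month library left out in turn, 0 to 1799 genes and 0 to 8 Slc25 members were called for expression, and the members' median log2 difference ran from -0.030 to 0.011. That median was 0.0059 with no filter beyond 1 count and -0.058 with a mean of at least 50 counts. DESeq2 called 34 genes. Genes called for exon usage numbered 1765 with voom, 174 with bins of at least 50 counts, 3375 with the gene F-test and 171 to 3250 with a library left out. Slc25 genes among them numbered 10, 1 (Slc25a3), 11 and 1 to 11 in the same order, and Slc25 bins 14 with voom, 1 with at least 50 counts and 1 to 37 with a library left out. Counting the most abundant bin of each exon, the exon 3A share of Slc25a3 differed by -6.11 percentage points. The cause of these moves was not tested.

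Single estimates that changed sign were mostly near 0. Slc25a24 came to 0.019 with library size taken without mitochondrial and the 20 most abundant genes and to 0.0059 with no filter. With a 28-month library left out it ran from -0.065 to 0.092, and Slc25a36 ran from -0.71 to 0.089. Slc25a11 ran from -0.38 to 0.035, Slc25a12 from -0.22 to 0.0025, Slc25a16 from -0.10 to 0.032, Slc25a44 from -0.25 to 0.15, Slc25a23 from -0.030 to 0.12, Slc25a45 from -0.32 to 0.47 and Slc25a30 from -0.71 to 0.33, and in these 7 it was the fit without replicate 2 that changed sign. The cause was not tested. With 1 library at 18 months, no spread could be measured at that age.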

Other observations

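Slc25a51, a carrier of NAD, was counted as 1 unit with another gene and belongs to no comparison above. That unit held 4556, 4224 and 3357 counts at 28 months and 4639 at 18 months, or 68.2, 43.3 and 55.6 CPM against 71.2 CPM.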
